A study of Bos taurus with 10 samples.

Results

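Succinate dehydrogenase, complex II of the respiratory chain, was examined through its 4 subunit genes (SDHA, SDHB, SDHC and SDHD) and its 4 assembly factor genes (SDHAF1, SDHAF2, SDHAF3 and SDHAF4) in the liver of dairy cows. All 8 genes were read by the Affymetrix bovine expression array, through 10 of the 24016 probe sets that were not controls of the manufacturer. A probe set is a group of short probes for 1 transcript. A probe set was taken where the platform annotation gave it a single gene symbol and that symbol was one of the 8. SDHAF1 and SDHAF3 had 2 probe sets each and the other genes 1 each. The genes were chosen by name, but with their measured CLA minus control differences in these same arrays already known, in particular that of SDHAF4, so the differences of the 8 genes are given as a description and no test is attached to them.

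Liver biopsies were taken from Holstein cows in week 5 of lactation. The study used 40 cows, 20 on a fat supplement of conjugated linoleic acid (CLA) and 20 on a control fat, both protected from the rumen and fed between week 3 prepartum and week 14 postpartum. Each fat was 27.3% of a supplemental concentrate of which every cow ate 630 g of dry matter daily, on top of an identical mixed ration. CLA is a mixture of linoleic acid isomers whose double bonds are conjugated. RNA of 4 cows was combined for each array, with 5 CLA pools and 5 control pools, so the spread between arrays is a spread between pools of 4 cows and not between cows.

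Succinate dehydrogenase belongs to the tricarboxylic acid cycle and to the respiratory chain at once. SDHA carries covalently bound FAD and oxidizes succinate to fumarate. SDHB passes the electrons through iron-sulfur clusters, and SDHC and SDHD anchor the enzyme in the inner mitochondrial membrane, bind a heme and form, with SDHB, the site where ubiquinone is reduced. In yeast and human cells SDHAF2 promotes the attachment of FAD to SDHA, SDHAF4 binds the flavinylated SDHA before it joins SDHB, and SDHAF1 and SDHAF3 act on SDHB while its iron-sulfur clusters are in place or being fitted. In ruminant liver, propionate from the rumen enters the cycle as succinyl-CoA and passes through succinate on its way to glucose.

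The deposited values are log2 expression values that the authors had normalized, and differences are CLA minus control on that scale. In limma with Benjamini-Hochberg adjustment, 0 of the 24016 probe sets had an adjusted p under 0.05, the lowest being 0.252, while 962 were higher and 1173 lower in the CLA pools at an unadjusted p under 0.05 (4.01% and 4.88%, together 8.89%). Subtraction of array medians turned this split to 1474 higher and 627 lower. The array medians lay between 5.79 and 5.82 in the CLA pools and between 5.83 and 5.85 in the control pools (exact two-sided permutation p = 0.00794, the smallest that 252 groupings allow). Over the probe sets above the dimmest 30% the medians differed by 0 (exact permutation p = 1). CLA pool 2 and control pool 4 had the lowest mean correlation with the other arrays, 0.990 each, against up to 0.994, and member values without them are given below. Hepatocyte genes were bright in all pools, with albumin (ALB) at a mean of 14.93 in the CLA pools and 14.88 in the control pools.

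SDHAF4 had the largest difference of the 10 probe sets. Its log2 values were 9.20, 9.38, 9.33, 9.22 and 9.29 in CLA pools 1 to 5, against 8.69, 8.70, 9.14, 8.36 and 8.93 in control pools 1 to 5. All 5 CLA pools lay above all 5 control pools, with a gap of 0.06 between the lowest CLA pool and control pool 3. The mean was 9.28 ± 0.075 in the CLA pools and 8.76 ± 0.29 in the control pools (SD, n = 5 each), a difference of 0.52 ± 0.12 SE or 1.43-fold. On the whole array 0.291% of probe sets differed by more in either direction. SDHAF4 was the 1 of 10 probe sets whose pools did not overlap and were higher with CLA, where the array had 1.18% of such probe sets, and 0 of 10 were lower without overlap, where the array had 0.791%. Nothing is read from these counts because the genes were chosen with them known. In bulk tissue, a different number of cells of a type and a different amount of RNA per cell cannot be told apart, here and below.

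The spread of SDHAF4 was unequal: its SD in the CLA pools was lower, and the SD of the control pools was 3.90 times that of the CLA pools. The median of this ratio over all probe sets was 1.11, and 2.37% of probe sets had a higher one. Control pools 3 and 4 lay at the ends of the control range. The difference was 0.42 without control pool 4 and 0.61 without control pool 3, the lowest and highest values with any single pool left out.

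SDHAF2, the other assembly factor that acts on SDHA, had values of 8.50, 8.77, 8.67, 8.83 and 8.64 in the CLA pools, against 8.82, 9.05, 8.71, 8.73 and 8.58 in the control pools. The groups overlapped over most of their range. The means were 8.68 ± 0.13 in the CLA pools and 8.78 ± 0.17 in the control pools (SD, n = 5 each), with a difference of -0.10 ± 0.095 SE that shrank to -0.03 without control pool 2. The assembly factors of the flavoprotein thus had differences of opposite sign, and that of SDHAF2 was about the size of its error.

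**Figure D1:**
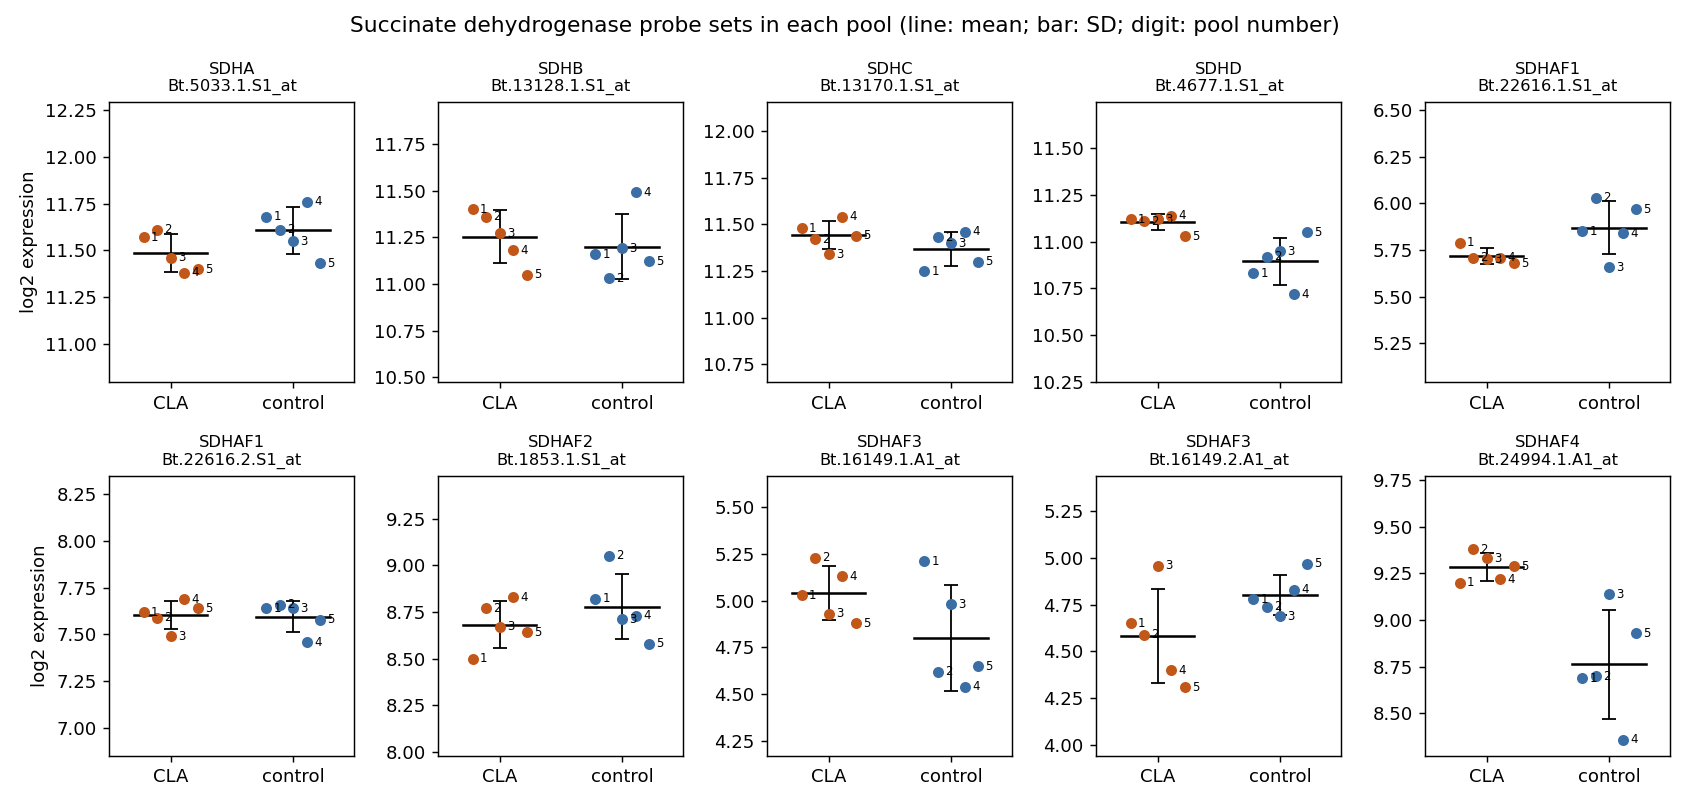
Log2 expression (y axis, 1 panel per probe set, all panels with the same span) in the 5 CLA and 5 control pools. Points are pools with their number, lines are means and bars SDs. The SDHAF4 points of the CLA pools lie between 9.20 and 9.38, above the control points between 8.36 and 9.14, while the groups overlap in the other 9 panels.

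SDHA, the catalytic flavoprotein, had values of 11.57, 11.61, 11.46, 11.38 and 11.40 in the CLA pools, against 11.68, 11.61, 11.55, 11.76 and 11.43 in the control pools. No CLA pool exceeded the control median. The means were 11.48 ± 0.10 in the CLA pools and 11.61 ± 0.13 in the control pools (SD, n = 5 each), a difference of -0.12 ± 0.080 SE or 0.919-fold. It ranged from -0.17 without control pool 5 to -0.08 without control pool 4.

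SDHB, the iron-sulfur subunit, had values of 11.40, 11.36, 11.27, 11.18 and 11.05 in the CLA pools, against 11.16, 11.03, 11.19, 11.49 and 11.12 in the control pools. Control pool 4 was the highest of all 10, and the other 4 control pools lay within the CLA range or just below it. The difference was 0.05 ± 0.098 SE, 0.01 without control pool 2 and 0.13 without control pool 4. The differences of the catalytic subunits SDHA and SDHB had opposite signs, but that of SDHB was smaller than its error. Of all probe sets, 65.4% differed by more than SDHB.

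SDHC, the larger membrane anchor, had values of 11.48, 11.42, 11.34, 11.54 and 11.44 in the CLA pools, against 11.25, 11.43, 11.40, 11.46 and 11.30 in the control pools. The ranges overlapped, with a difference of 0.08 ± 0.069 SE, which was 0.05 without control pool 1 and 0.04 after cyclic loess normalization. Its spread between pools was small, at percentile 6.89 of the spread of all probe sets.

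SDHD, the smaller membrane anchor, had the largest difference among the subunits. Its values were 11.12, 11.11, 11.12, 11.14 and 11.03 in the CLA pools, against 10.83, 10.92, 10.95, 10.72 and 11.05 in the control pools. Of the CLA pools 4 lay above every control pool, and CLA pool 5 lay 0.02 below control pool 5. The means were 11.10 ± 0.043 in the CLA pools and 10.89 ± 0.13 in the control pools (SD, n = 5 each), a difference of 0.21 ± 0.072 SE or 1.16-fold. It lay between 0.17 without control pool 4 and 0.25 without control pool 5. As for SDHAF4, the CLA pools were the tighter group: the control SD was 2.92 times the CLA SD, a ratio that 5.74% of probe sets exceeded. The SDHAF1 probe set Bt.22616.1.S1_at, lower in the CLA pools, had a ratio of 3.38, which 3.64% exceeded.

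The factors that act on SDHB differed between their own probe sets. The SDHAF1 probe set Bt.22616.1.S1_at had values of 5.79, 5.71, 5.70, 5.71 and 5.68 in the CLA pools, against 5.85, 6.03, 5.66, 5.84 and 5.97 in the control pools. Control pool 3 was the lowest of all 10 pools and the other 4 control pools lay above every CLA pool, with a difference of -0.15 ± 0.076 SE. The SDHAF1 probe set Bt.22616.2.S1_at had 7.49 to 7.69 in the CLA pools and 7.46 to 7.66 in the control pools, with a difference of 0.01 ± 0.067 SE. After removal of the group means, the probe sets of SDHAF1 had a Pearson correlation of 0.06 over the 10 pools.

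For SDHAF3 the probe sets had opposite signs. Bt.16149.1.A1_at had values of 5.03, 5.23, 4.93, 5.13 and 4.88 in the CLA pools, against 5.21, 4.62, 4.98, 4.54 and 4.65 in the control pools, and differed by 0.24 ± 0.13 SE. Bt.16149.2.A1_at had values of 4.65, 4.59, 4.96, 4.40 and 4.31 in the CLA pools, against 4.78, 4.74, 4.69, 4.83 and 4.97 in the control pools, and differed by -0.22 ± 0.11 SE. Their correlation over the pools, with group means removed, was -0.18. Both SDHAF3 probe sets were among the dimmer ones of the array, at the percentiles 37.7 and 34.5 of mean signal, so no direction is given for the gene. Percentiles order probe signals and not amounts of transcript.

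The median difference of the 10 probe sets was 0.03, beside -0.018 for all 24016, and 6 were higher and 4 lower in the CLA pools. On the array 43.5% of probe sets were higher with CLA. With quantile normalization, subtraction of array medians or cyclic loess normalization 6 of the 10 stayed higher, and SDHAF4 stayed the 1 without overlap in each. Of all probe sets 48.1%, 54.4% and 49.5% were higher in these scalings, in that order. The shares higher without overlap were 1.24%, 1.88% and 1.32%. Over these scalings SDHAF4 differed by 0.49 to 0.55, SDHD by 0.15 to 0.24 and SDHA by -0.16 to -0.09. Without CLA pool 2 and control pool 4, SDHAF4 differed by 0.40 ± 0.11 SE, SDHD by 0.17 ± 0.074 SE, SDHA by -0.12 ± 0.081 SE and the SDHAF3 probe set Bt.16149.1.A1_at by 0.13 ± 0.13 SE. SDHB differed in that fit by 0.10 ± 0.088 SE.

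**Figure D2:**
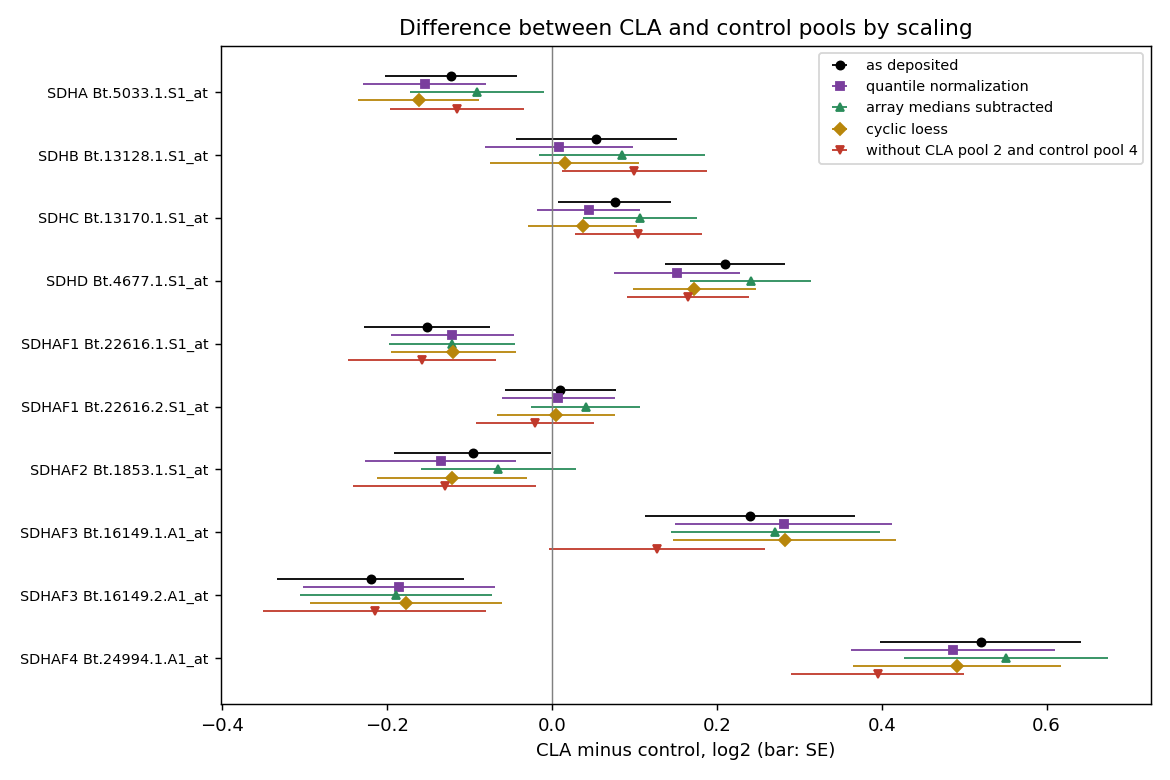
Difference between CLA and control pools on the log2 scale (x axis) with its SE (bars) for each probe set (y axis), from the deposited values, after each of 3 other scalings, and without CLA pool 2 and control pool 4. SDHAF4 lies between 0.40 and 0.55 in all 5, and the probe sets of SDHAF3 stay on opposite sides of 0.

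How the members moved together from pool to pool was read with each pool set against the mean of its own group. SDHA and SDHB, which form the catalytic head, covaried positively. Their Pearson correlation over the 10 pools was 0.73 (Spearman's rho 0.75), with 0.87 within the CLA pools and 0.64 within the control pools. Leaving out the 2 pools at the greatest distance from the SDHA median gave 0.66, and leaving out control pool 4 gave 0.59. Of all probe sets, 2.37% correlated more highly with SDHA than SDHB did.

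SDHD and SDHAF4 had r = 0.74 and rho = 0.59 over the 10 pools. After this pair and SDHA with SDHB, the next highest of the 45 pairs was SDHAF1 Bt.22616.2.S1_at with SDHAF3 Bt.16149.1.A1_at at 0.45. For SDHD and SDHAF4 r was -0.22 in the CLA pools and 0.82 in the control pools, and 0.41 without control pool 4. SDHA with SDHD gave r = -0.67 and SDHA with SDHAF4 gave r = -0.55. In the CLA pools these values were 0.24 and 0.32, and the negative ones came from the control pools, at -0.99 and -0.80. Without the 2 pools farthest from the SDHA median they were -0.13 and -0.19. In control pool 4 SDHA lay 0.15 and SDHB 0.29 above the control mean, while SDHD lay at -0.17 and SDHAF4 at -0.40 from it. Without control pool 4, r was -0.49 for SDHA with SDHD and -0.28 for SDHA with SDHAF4. SDHB with SDHD had r = -0.42 with that pool and 0.25 without it.

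**Figure D3:**
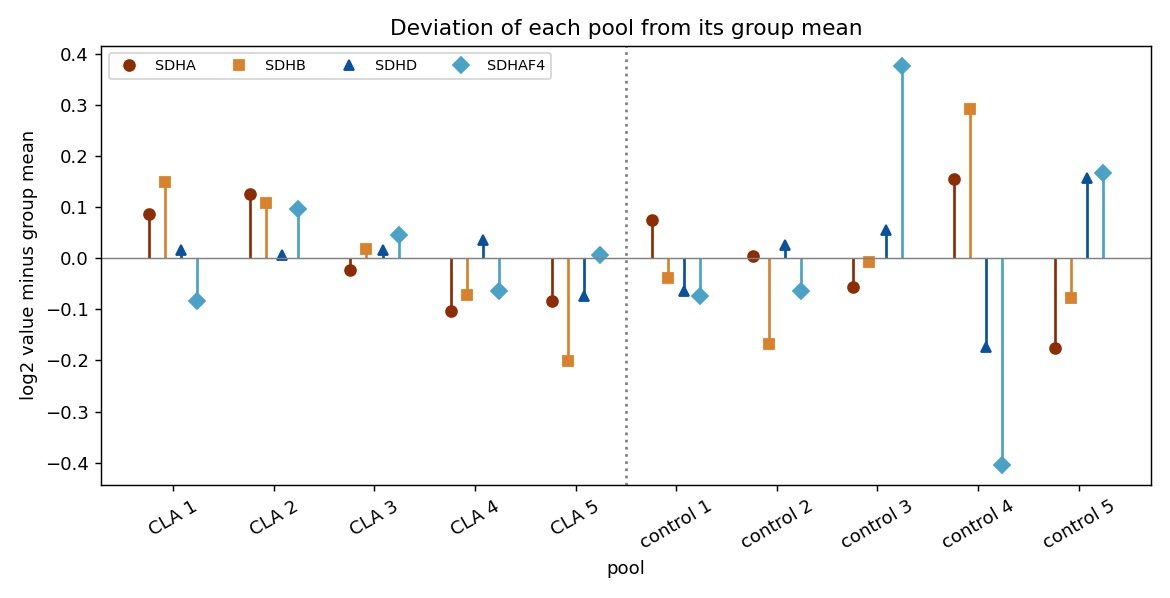
Deviation of SDHA, SDHB, SDHD and SDHAF4 from the mean of their own group (y axis, log2) in each of the 10 pools (x axis). In control pool 4 SDHB stands at 0.29 and SDHAF4 at -0.40, on opposite sides of the control mean.

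Over all 45 pairs of the 10 probe sets the median correlation was 0.01, and 24 pairs were above 0. The median of a member with all probe sets of the array was -0.01. The lowest pair was SDHAF1 Bt.22616.2.S1_at with SDHAF3 Bt.16149.2.A1_at, at r = -0.69 and at -0.90 without control pool 4. SDHB with SDHAF1 Bt.22616.2.S1_at followed SDHA with SDHD closely, at r = -0.67, and at -0.33 without control pool 4. SDHC, which pairs with SDHD in the membrane, had r = -0.21 with it, 0.12 with SDHA and 0.20 with SDHB. Without control pool 4 all 3 changed sign, to 0.18 with SDHD, -0.16 with SDHA and -0.20 with SDHB. These correlations rest on 10 pools, carry no test, and share whatever differs between arrays. The deviation of SDHA from its group mean correlated at 0.72 with the SD of all values on the array, that of SDHB at 0.46, that of SDHD at -0.24 and that of SDHAF4 at 0.05. The part of this array property in the pairs was not tested.

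**Figure D4:**
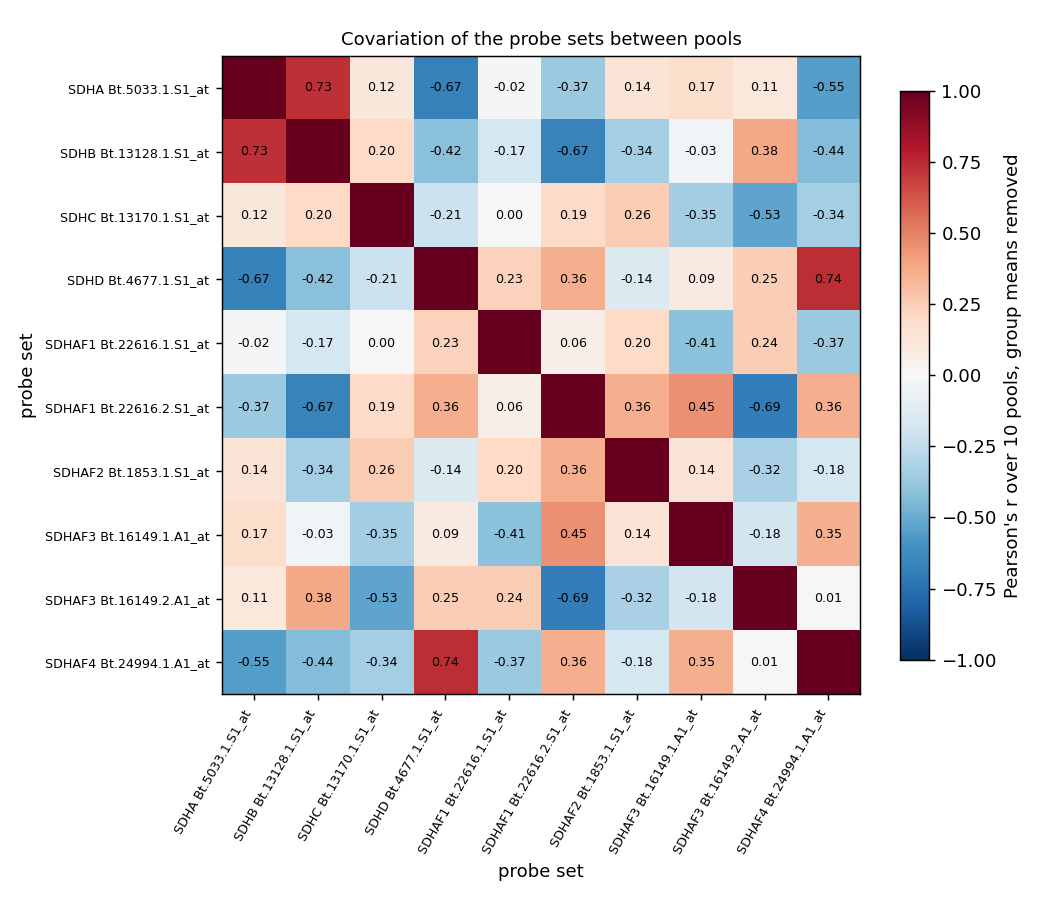
Pearson's r over the 10 pools for each pair of the 10 probe sets (both axes), after removal of group means, with colour from -1 to 1. The highest pairs are SDHD with SDHAF4 (0.74) and SDHA with SDHB (0.73), and the lowest are SDHAF1 Bt.22616.2.S1_at with SDHAF3 Bt.16149.2.A1_at (-0.69), SDHA with SDHD (-0.67) and SDHB with SDHAF1 Bt.22616.2.S1_at (-0.67).

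The genes most like each member over the 10 pools, with group means removed, were taken from 9155 genes with 1 probe set each. For SDHAF4 they were EMD, an inner nuclear membrane protein (r = 0.96), PPP1CB, a catalytic subunit of protein phosphatase 1 (r = 0.95), SCOC (r = 0.94), CHD9, a chromatin remodeller (r = 0.92), and PNRC1 (r = 0.92). Their own differences were 0.09, 0.21, 0.46, 0.30 and 0.37, all with the same sign as that of SDHAF4, where 46.0% of all named genes were higher in the CLA pools. For SDHD they were RPL36A, a protein of the large ribosomal subunit (r = 0.95), UBA6, a ubiquitin-activating enzyme (r = 0.93), PAG6, a pregnancy-associated glycoprotein (r = 0.92), ZBTB21 (r = 0.92) and TNS1 (r = 0.91). These differed by 0.14, 0.40, -0.05, 0.15 and 0.16, so PAG6 had the sign opposite to that of SDHD. The most alike gene was CUTA for SDHA (r = 0.95), NUDC for SDHB (r = 0.97) and AP2A1 for SDHC (r = 0.93). It was POU2AF1 for SDHAF1 (r = 0.92), ARHGAP15 for SDHAF2 (r = 0.97) and PAG14 for SDHAF3 (r = 0.95). For SDHAF1 and SDHAF3 this holds for the brighter probe set, Bt.22616.2.S1_at and Bt.16149.1.A1_at. Each is the highest of 9154 values, and 0.1% of genes reached 0.88 or more with SDHD and 0.91 or more with SDHAF4. PAG14, POU2AF1, ARHGAP15 and AP2A1 were dim, at the percentiles 19.0, 29.0, 32.7 and 32.9 of mean signal.

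SDHAF2 followed markers of lymphocytes between pools. With the mean of 9 T and NK lymphocyte markers its correlation was 0.85 (rho = 0.90), 0.96 within the CLA pools and 0.83 within the control pools. Leaving out the 2 pools farthest from the median marker mean gave 0.92. With the mean of 6 Kupffer cell and macrophage markers it was 0.72. These were picked as the highest among 9 cell type lists, and carry no test. With 9 hepatocyte markers it was -0.37, and 0.08 without the 2 pools farthest from the median of that list. All 9 T and NK markers were lower in the CLA pools, with a median of -0.19 and a list mean of 6.48 to 6.75 in the CLA pools against 6.61 to 7.08 in the control pools. ZAP70, which signals downstream of T cell receptors, differed by -0.44 ± 0.11 SE and CD2, an adhesion molecule, by -0.33 ± 0.16 SE, against -0.046 and -0.028 on its other probe sets. All 9 stayed lower under each of the 3 other scalings. All 6 Kupffer cell markers were lower as well (median -0.11, and 5 of 6 after subtraction of array medians), among them MSR1 at -0.26 ± 0.15 SE and CD68 at -0.23 ± 0.14 SE. The list mean was 8.65 to 8.995 in the CLA pools and 8.74 to 9.27 in the control pools. The part of these cells in the SDHAF2 difference was not tested.

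SDHD correlated at 0.56 (rho 0.79) with the hepatocyte list and at -0.66 with the endothelial list, and at 0.75 and -0.58 without the 2 farthest pools. The endothelial value was -0.11 within the CLA pools and -0.97 within the control pools. SDHAF4 correlated at 0.53 with the hepatocyte list and at -0.63 with the endothelial list. Its hepatocyte value was -0.79 within the CLA pools and 0.97 within the control pools. All 9 hepatocyte markers were higher in the CLA pools, by 0.02 to 0.21 (median 0.06), with FGB at 0.21 ± 0.14 SE and TF at 0.06 ± 0.055 SE. After quantile normalization 7 of the 9 were higher (median 0.02), and after cyclic loess 6. The list mean was 12.30 to 12.50 in the CLA pools and 12.20 to 12.41 in the control pools. Of 8 endothelial markers 4 were higher and 4 lower (median -0.01, and 0.02 after subtraction of array medians), with EMCN at 0.25 ± 0.088 SE, against -0.010 on its other probe set, and LYVE1 at 0.16 ± 0.089 SE. The list mean was 6.79 to 7.09 in the CLA pools and 6.83 to 7.11 in the control pools. The part of the cell mixture in the SDHD and SDHAF4 differences was not tested.

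Of the remaining cell type lists, 3 had medians of -0.05 to 0.03 and those of erythroid and B cells were lower. Stellate cell and fibroblast markers had a median of 0.03 over 8 genes, with LRAT at 0.22 ± 0.087 SE and DCN at 0.18 ± 0.17 SE. The cholangiocyte list had -0.05 over 5, with KRT19 at 0.19 ± 0.13 SE and KRT7 at -0.13 ± 0.11 SE. That median is the value of SOX10, which was read in place of the listed SOX9 and was not a chosen marker. SOX10 was dim, at percentile 12.1 of mean signal, so no direction is given for these cells. Skeletal muscle markers had -0.03 over 7, with MYH7 at 0.17 ± 0.094 SE, against -0.134 and -0.274 on its other probe sets, and MB at -0.11 ± 0.10 SE. All 5 erythroid markers were lower (median -0.08, and 4 of 5 after quantile normalization), with HBA at -0.24 ± 0.076 SE and AHSP at -0.16 ± 0.096 SE. The HBA pools did not overlap, and 0.699% of all named genes were lower in the CLA pools without overlap. Most of these markers were dim: SLC4A1, ALAS2, HBA and AHSP lay at the percentiles 1.78, 15.2, 22.6 and 37.1 of mean signal, and HBB at 52.4. Of 4 B cell markers 3 were lower (median -0.09, and 2 under each of the other scalings), with BLK at -0.37 ± 0.15 SE and MS4A1 at -0.16 ± 0.11 SE.

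Genes that feed succinate dehydrogenase were taken from lists of its neighbours in metabolism, with the brightest probe set of each gene. Over all 9155 named genes the median difference was -0.01, and 46.0% were higher in the CLA pools. At limma's unadjusted p under 0.05, 4.35% were higher and 4.15% lower, with 0 under an adjusted p of 0.05. Of 11 other enzymes of the tricarboxylic acid cycle, 8 were higher and 2 lower (median 0.09), 2 of them at an unadjusted p under 0.05, both higher, and 0 at an adjusted p under 0.05. The median was 0.03 without CLA pool 2.

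DLD, the shared dehydrogenase subunit of the 2-oxoglutarate, pyruvate and branched-chain keto acid complexes, had values of 10.06, 10.16, 10.12, 10.01 and 9.99 in the CLA pools, against 9.80, 9.81, 9.91, 9.63 and 9.77 in the control pools. The groups did not overlap, and 1.47% of all named genes were higher in the CLA pools without overlap. The difference of DLD was 0.28 ± 0.070 SE (limma, Benjamini-Hochberg adjusted p = 0.332). SUCLG2, the GTP-specific subunit of succinyl-CoA synthetase, which makes succinate, had 12.04, 12.03, 12.10, 11.94 and 11.94 in the CLA pools, against 11.67, 11.68, 11.94, 11.62 and 11.81 in the control pools. It differed by 0.27 ± 0.076 SE (limma, Benjamini-Hochberg adjusted p = 0.381), with 2 CLA pools level with control pool 3. SUCLG1, the alpha subunit with which it pairs, differed by 0.13 ± 0.12 SE, and SUCLA2, the ATP-specific subunit that pairs with SUCLG1 in its place, by 0.21 ± 0.098 SE. FH, which takes the fumarate that succinate dehydrogenase makes, differed by -0.12 ± 0.19 SE, and by -0.286 at its other probe set.

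On the path from propionate to succinyl-CoA all 6 measured genes were higher in the CLA pools, by 0.02 to 0.17 (median 0.05). After quantile normalization the median was 0.0033, and 2 of the 6 were lower. MMUT, the methylmalonyl-CoA mutase that yields succinyl-CoA, differed by 0.17 ± 0.068 SE and was the 1 gene at an unadjusted p under 0.05. PCCA, a subunit of propionyl-CoA carboxylase, differed by 0.06 ± 0.072 SE. Of other sources and carriers of succinate 3 of 7 genes were measured and 0 had an unadjusted p under 0.05. SLC13A2 and SLC13A3, sodium-coupled dicarboxylate carriers, differed by 0.33 ± 0.27 SE and 0.07 ± 0.11 SE.

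**Figure D5:**
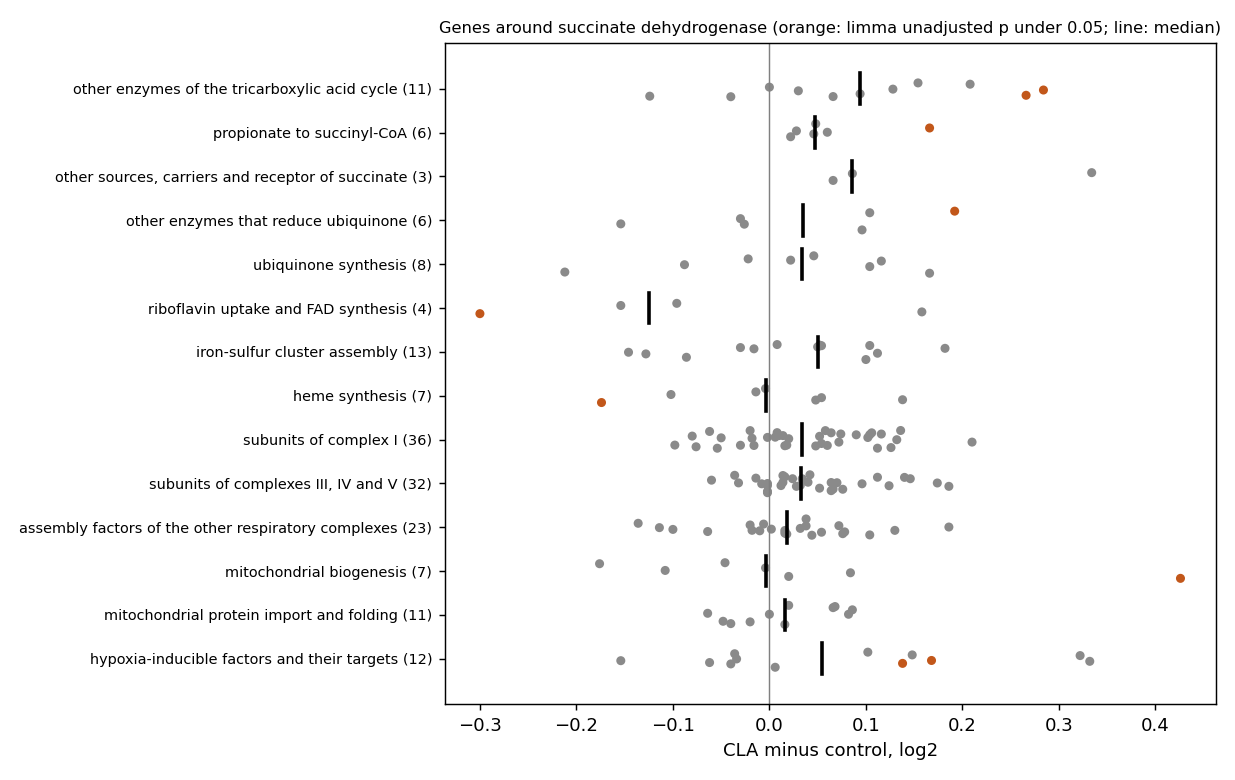
CLA minus control on the log2 scale (x axis) for the measured genes of each list (y axis, number of genes in parentheses), with list medians as lines and genes at an unadjusted limma p under 0.05 in orange. The other tricarboxylic acid cycle enzymes have a median of 0.09 and riboflavin uptake and FAD synthesis -0.13, and 0 genes passed the adjusted test.

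Genes for the cofactors of the enzyme differed in sign. In riboflavin uptake and FAD synthesis 3 of 4 genes were lower (median -0.13). SLC52A2, a riboflavin transporter, had 8.64, 8.50, 8.48, 8.44 and 8.69 in the CLA pools, against 8.84, 8.62, 8.87, 9.07 and 8.85 in the control pools. It differed by -0.30 ± 0.089 SE (limma, Benjamini-Hochberg adjusted p = 0.399), and at further probe sets by -0.114 and -0.292. RFK, riboflavin kinase, differed by 0.16 ± 0.092 SE. In iron-sulfur cluster assembly 8 of 13 genes were higher (median 0.05, 0.02 without CLA pool 2 and 0.01 after quantile normalization) and 0 had an unadjusted p under 0.05, with the mitochondrial iron carriers SLC25A37 and SLC25A28 at -0.15 ± 0.088 SE and -0.13 ± 0.086 SE. In heme synthesis 3 of 7 genes were higher and 4 lower (median -0.004, and 0.03 after subtraction of array medians). ALAS1, its first and rate-limiting enzyme in liver, which consumes succinyl-CoA, differed by -0.17 ± 0.069 SE and was the 1 gene of the list at an unadjusted p under 0.05. UROS, uroporphyrinogen III synthase, differed by 0.14 ± 0.11 SE.

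In the list of other enzymes that reduce ubiquinone 3 of 6 genes were higher (median 0.04, and -0.02 without CLA pool 2). It includes ETFA and ETFB, which do not reduce ubiquinone themselves but pass electrons to ETFDH, which was not measured. Of the rest, SQOR differed by 0.10 ± 0.11 SE, DHODH by -0.03, GPD2 by -0.15 and PRODH by -0.03. ETFB, which carries electrons from fatty acid oxidation, differed by 0.19 ± 0.074 SE, the 1 gene of this list at an unadjusted p under 0.05, and its partner ETFA by 0.10 ± 0.085 SE. In ubiquinone synthesis 5 of 8 were higher (median 0.03, 0.01 after quantile normalization and -0.006 without CLA pool 2) and 0 had an unadjusted p under 0.05. COQ2 differed by 0.17 ± 0.11 SE, against 0.040 on its other probe set, and COQ6 by -0.21 ± 0.14 SE.

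The other respiratory complexes held no gene at an unadjusted p under 0.05. Of 36 measured subunits of complex I 25 were higher (median 0.03), led by NDUFB5 at 0.21 ± 0.097 SE and NDUFB1 at 0.14 ± 0.077 SE, whose other probe set differed by -0.080. Of 32 subunits of complexes III, IV and V 23 were higher (median 0.03), led by ATP5F1B at 0.19 ± 0.086 SE and UQCRC2 at 0.17 ± 0.083 SE, whose other probe sets differed by -0.154 and -0.140. Both medians were negative without CLA pool 2 (-0.0078 and -0.0075) and after quantile normalization (-0.0054 and -0.0022). After quantile normalization 18 complex I subunits were higher and 18 lower, and of complexes III, IV and V 13 were higher and 18 lower. SDHD, at 0.21, lay at the upper end of these subunits, whose differences spanned -0.10 to 0.21.

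SDHAF4 can be set beside 23 measured assembly factors of the other respiratory complexes. Their differences spanned -0.14 to 0.19 (median 0.02), with 15 higher and 8 lower and 0 at an unadjusted p under 0.05, so none reached the 0.52 of SDHAF4. COX10, which makes heme for complex IV, differed by -0.14 ± 0.065 SE. NDUFAF3, a complex I factor, differed by -0.11 ± 0.057 SE, and further probe sets of it gave -0.184 and -0.122. Its pools did not overlap, and 0.699% of all named genes were lower in the CLA pools without overlap. After quantile normalization 11 of the 23 were higher and 12 lower, and without CLA pool 2 the median was 0.0005. The comparison is of values only, because SDHAF4 was chosen for its size.

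Lists of mitochondrial content had medians near 0. In mitochondrial biogenesis 3 of 7 genes were higher (median -0.004, and 0.03 after subtraction of array medians). TFB1M, a methyltransferase of mitochondrial ribosomal RNA, had a difference of 0.43 ± 0.11 SE on its brightest probe set, the 1 gene of the list at an unadjusted p under 0.05, against -0.020 and -0.004 on its others. TWNK, the mitochondrial helicase, differed by -0.18 ± 0.11 SE. In mitochondrial protein import and folding 6 of 11 were higher (median 0.02, and -0.01 after quantile normalization) and 0 had an unadjusted p under 0.05, with PMPCA at 0.09 ± 0.075 SE and TOMM70 at 0.08 ± 0.071 SE, against -0.230 on its other probe set. In cells that accumulate succinate, hypoxia-inducible factors can be stabilized. Of 12 such factors and targets 7 were higher and 5 lower (median 0.05, and 0.03 without CLA pool 4), 2 of them at an unadjusted p under 0.05. EPAS1 differed by 0.17 ± 0.067 SE on its brightest probe set, and by -0.150 at its other probe set. Its groups did not overlap on the brightest, and 1.47% of all named genes were higher in the CLA pools without overlap. BNIP3 differed by 0.14 ± 0.061 SE, and by -0.084 and -0.136 at its others.

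Of the nearest protein-coding genes in the RefSeq order on either side of the members, 11 of 16 were measured. SMAP1, beside SDHAF4, differed by -0.05 ± 0.070 SE. TIMM8B and IL18, on either side of SDHD, differed by -0.04 ± 0.088 SE and -0.02 ± 0.15 SE. PDCD6 and CCDC127, on either side of SDHA, differed by -0.05 ± 0.066 SE and -0.04 ± 0.13 SE. ATP13A2 beside SDHB, CFAP126 beside SDHC and SYNE4 beside SDHAF1 differed by 0.01 each. TAC1 beside SDHAF3 differed by -0.17 ± 0.12 SE, PPP1R32 beside SDHAF2 by -0.13 ± 0.083 SE and LRFN3, the other neighbour of SDHAF1, by -0.12 ± 0.080 SE. These last 3 were farther from 0 than SDHAF2. These neighbours were looked up after the member values were seen.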

How the data were processed

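Each of 10 Affymetrix bovine arrays read RNA pooled from 4 cows, per the labels. The deposited table held log2 values, 1 per probe set and array, normalized by the authors; the submitters' processing notes name Affymetrix Expression Console 1.1 and RMA, whose settings are not given in the sources used here, and these values were taken unchanged. Signal over background is unknown per probe set, and precision is limited by the number of arrays. Of 24128 probe sets, 112 manufacturer controls were left out; 13292 of the 24016 tested had 1 symbol in the platform annotation, 86 had several and 10638 none, and the symbols were checked against RefSeq (ARS-UCD2.0), used for names and gene order only.

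Differences and SEs came from lmFit and eBayes (limma 3.58.1, R 4.3.3) on all 10 arrays without covariates, with p-values adjusted (Benjamini-Hochberg) across all 24016, and checked on simulated data. Array medians were compared by an exact permutation test. Correlations used values minus group means.

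The 14 pathway lists (179 of 236 genes measured) and 9 cell type lists (61 of 68) used the brightest probe set of each gene. Among the cell type genes counted as measured, SOX10 was read in place of SOX9. Named genes were the 2 of smallest p in each list, and the genes most correlated with a member (5 for SDHAF4 and SDHD, 1 for others). SUCLA2, SUCLG1, FH, ALB and the neighbours were added after their values were seen. Members and lists were chosen with earlier results of these data known. Alternatives were each pool left out, a block for the pool number, removal of the dimmest 30%, 3 scalings, eBayes options, array weights and gene means. The fit without CLA pool 2 and control pool 4 was added after seeing the data. The labels do not say whether equal pool numbers pair the samples, and the pools were treated as unpaired. Same-numbered pools had correlations of -0.09 to 0.09 after removal of group means, which cannot show whether they were matched.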

Additional observations from a re-analysis of the deposited data

Results flagged for a closer look

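Among 20 sets of 5 pools (10 probe sets in each group), a pool stood apart from the other 4 in 2, where chance gives about 1 in 20. The ratio of the gap to the nearest pool over the range of the group was 0.727 in each. For SDHD, CLA pool 5 had 11.03 and the other CLA pools 11.11 to 11.14, and the difference was 0.23 without it. For the SDHAF1 probe set Bt.22616.1.S1_at, CLA pool 1 had 5.79 and the other CLA pools 5.68 to 5.71, and the difference was -0.17 without it. In both cases the values carry 2 decimals, and the other pools span only a few hundredths.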

How the results depend on the processing

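Of 180 recomputed differences of the member probe sets 3 changed sign, all of SDHAF1 Bt.22616.2.S1_at. Those with the replicate block, the filter on the dimmest 30% and the eBayes options equal the main differences by construction, so they could not change sign. Of 266 recomputed list medians 37 changed sign, in 10 of 14 lists. The count of 0 probe sets under an adjusted p of 0.05 held in every alternative except without CLA pool 2 and control pool 4, where 1 passed (CGN1, conglutinin, 0.97, limma adjusted p = 0.0302), which is no member. At an unadjusted p under 0.05, subtraction of array medians gave 1474 higher and 627 lower, cyclic loess normalization 779 lower and the filter on the dimmest 30%, which tests fewer probe sets, 645 lower. With the pool number as a replicate block 1000 were higher and 1168 lower, and 0 passed the adjusted test. Member differences cannot change in that fit, because each block holds 1 pool of each group. Leaving out 1 pool gave 783 to 1003 higher and 792 to 1294 lower. The difference of the array medians was -0.031, and 0 over the probe sets above the dimmest 30%. The median correlation of the member pairs lay between -0.03 and 0.10 with a pool left out. The cause of these shifts was not tested.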
